A study of Mus musculus with 32 samples.

Results

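The comparison described here is the relative cytoplasmic level of each gene after SRSF3 knockdown, that is, the change between SRSF3 knockdown and GFP control in the cytoplasm minus the same change in the whole cell. It rests on 8 of the 32 libraries of the series, with 2 replicates (letters A and B) of SRSF3 knockdown cytoplasm, SRSF3 knockdown whole cell, GFP control cytoplasm and GFP control whole cell. Differences were formed within letter A and within letter B, and 19184 of the 38201 genes in the gene tables passed the filter on low values and were tested. Gene names and the lists used below were chosen with earlier results of these data known. The cells are P19, an established mouse embryonal carcinoma line that grows as pluripotent stem-like cells. They were transfected for 36 h with an esiRNA (enzymatically cut double-stranded RNA that silences the matching mRNA) against Srsf3 or against GFP, which mouse cells do not carry. Poly(A)+ RNA from whole-cell lysates and from cytoplasmic fractions was then sequenced. The series holds libraries of both fractions for 6 further knockdowns, SRSF1, SRSF2 and SRSF4 to SRSF7, each with the same GFP control.

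SR proteins are splicing factors with RNA-recognition motifs and a domain rich in arginine and serine. They bind exons of pre-mRNA in the nucleus, and some of them, SRSF3 among them, shuttle to the cytoplasm with the mRNA. SRSF3 is the smallest member of the family and can serve as an adaptor for NXF1, the receptor that carries bulk mRNA through the nuclear pore. The cytoplasmic share of a transcript depends on its export, on its stability on either side of the pore and on which isoform is made, since many genes end at alternative poly(A) sites and so carry a short or a long 3′ untranslated region (3′ UTR).

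The deposited gene tables give scaled reads, estimated reads per gene brought to a common depth within each fraction, and the 8 libraries sum to between 30219918 and 35206916 of them. Srsf3 itself had 5720.4 and 3215 scaled reads in SRSF3 knockdown cytoplasm, against 7172 and 6254 in GFP control cytoplasm, and 7145 and 4440.1 in the SRSF3 knockdown whole cell, against 8695 and 8161 in the GFP control whole cell. The knockdown left 79.8% of the control level in letter A and 51.4% in letter B in the cytoplasm, and 82.2% and 54.4% in the whole cell. The fall was called in both fractions (log2 -0.65, SE 0.14, limma adjusted p = 0.00892 in the cytoplasm, and -0.61, SE 0.12, adjusted p = 0.00113 in the whole cell), and its relative cytoplasmic level was -0.04 (SE 0.20, limma adjusted p = 0.982). In the cytoplasm the adjusted p was 0.0543 without GFP control letter A, 0.086 without GFP control letter B and 0.0889 without SRSF3 knockdown letter B. Letter B is therefore the pair in which less Srsf3 mRNA was left. Markers of pluripotent cells were present in each of the 8 libraries, led by Pou5f1 and Lin28a, while Zfp42 (5.85 to 23.7) and Dppa5a (10.6 to 92.7) were low. Summed over 10 such markers, the cytoplasm held 120285 and 128971 scaled reads after SRSF3 knockdown, against 153524 and 155808 in the control. The whole cell held 71617 and 63856, against 82042 and 77507, so the sum, led by Pou5f1 and Lin28a, was lower after knockdown in each pair. Not all markers followed it, since Sall4 and Dnmt3b were higher after knockdown in both letters of both fractions. Dnmt3b had 18122 and 12809 in the cytoplasm, against 17088 and 9658, and 18048 and 10870 in the whole cell, against 16024 and 9265. Summed over 8 nuclear RNAs (Malat1, Neat1, Meg3, Miat, Firre, Tug1, Rian and Mirg), the cytoplasm held 7063 and 4035 scaled reads after SRSF3 knockdown in letters A and B, against 4454 and 4149 in the control, while the whole cell held 34905 and 38609.9, against 42709 and 39958. Cytoplasmic Malat1, a long noncoding RNA of nuclear speckles, came to 511 and 70.3 with SRSF3 depleted, against 278 and 89.8 for GFP. So the sum was higher after knockdown in the letter A cytoplasm and not in letter B, although in letter A Miat was lower and in letter B Meg3, Firre, Miat and Mirg were higher. Transcripts of other tissues (15 genes, led by Scgb2b27 and Cela2a) summed to 1925 in SRSF3 knockdown and 1881 in GFP control cytoplasm of letter A, and to between 23.7 and 70.3 in the other 6 libraries. The part that any of these lists plays in the results below was not tested. The fractions are bulk samples, in which fewer cells and less RNA per cell cannot be told apart.

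Relative to the whole cell, 107 genes were higher in the cytoplasm after SRSF3 knockdown and 21 were lower, which is 0.558% and 0.109% of the genes tested, or 0.667% in either direction (limma with the letter as a block, Benjamini-Hochberg adjusted p below 0.05). Log2 changes of the higher genes ran between 0.59 and 5.51 with a median of 1.20, and those of the lower genes between -4.60 and -0.66 with a median of -2.04. The 5.51 is of AK157302, a processed pseudogene with 23.8 and 15.7 scaled reads in SRSF3 knockdown cytoplasm, against 0 and 0 in the control. Its whole-cell values were 0 and 0.0115 after knockdown, against 4.17 and 0 in the control. The cytoplasm alone changed by 4.34, and the relative change was 6.98 within letter A and 4.05 within letter B. The 5.51 thus rests on values near the floor in both fractions. In the cytoplasm 100 of the higher but only 10 of the 21 lower genes averaged 50 or more scaled reads, so the median of the lower genes includes many low values. The counts rest on the letter as a block and on the spread shared with the other knockdowns. Without the replicate block limma called 1 gene higher, Chic1, and 0 lower, with 409 and 221 genes at an unadjusted p below 0.05. With the 8 libraries alone it called 1 higher, Lmbrd2, and 0 lower, with 691 and 225 at an unadjusted p below 0.05. Leaving out 1 library gave 20 higher genes without GFP control whole cell letter A, 29 without GFP control cytoplasm letter A, 43 without SRSF3 knockdown whole cell letter A, 57 without SRSF3 knockdown cytoplasm letter A and 190 without SRSF3 knockdown cytoplasm letter B. The lower genes then numbered 4 without either of the GFP control letter A libraries, 5 without SRSF3 knockdown whole cell letter A, 11 without GFP control cytoplasm letter B and 13 without GFP control whole cell letter B. In each of these fits the 107 and the 21 genes had the sign of their call. The letters already had the same sign in all of these genes, against 54.5% of all genes tested, so this follows largely from the call itself.

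Chic1 (ENSMUSG00000031327), which encodes a cysteine-rich protein with a hydrophobic domain, was the gene that earlier work on these data had picked from this comparison, so its call is no independent evidence. It had 216 and 185 scaled reads in SRSF3 knockdown cytoplasm, against 119.6 and 102 in GFP control cytoplasm. The fractions moved in opposite directions, since Chic1 stood at 562 and 683 in the SRSF3 knockdown whole cell, against 1028 and 988 in the GFP control whole cell. Knockdown and control libraries overlapped in neither fraction. The change was 0.84 on the log2 scale in the cytoplasm (SE 0.20, adjusted p = 0.0124) and -0.73 in the whole cell (SE 0.12, adjusted p = 0.000319). The relative change was 1.57 (SE 0.20, limma adjusted p = 0.000655), with 1.73 within letter A and 1.41 within letter B. It was called in each of the 8 fits that left out 1 library (adjusted p 0.000795 to 0.0152), and lost the call with the 8 libraries alone (adjusted p = 0.09). Set across all groups, the cytoplasm minus whole-cell difference of Chic1 on the log2 scale was -1.36 and -1.86 in letters A and B after SRSF3 knockdown, between -3.73 and -2.99 in the 12 pairs of the other 6 knockdowns, and -3.08 and -3.28 in the GFP control. The 2 tables were scaled separately, so such a difference orders libraries and is not a share of the mRNA in the cytoplasm.

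**Figure D1:**
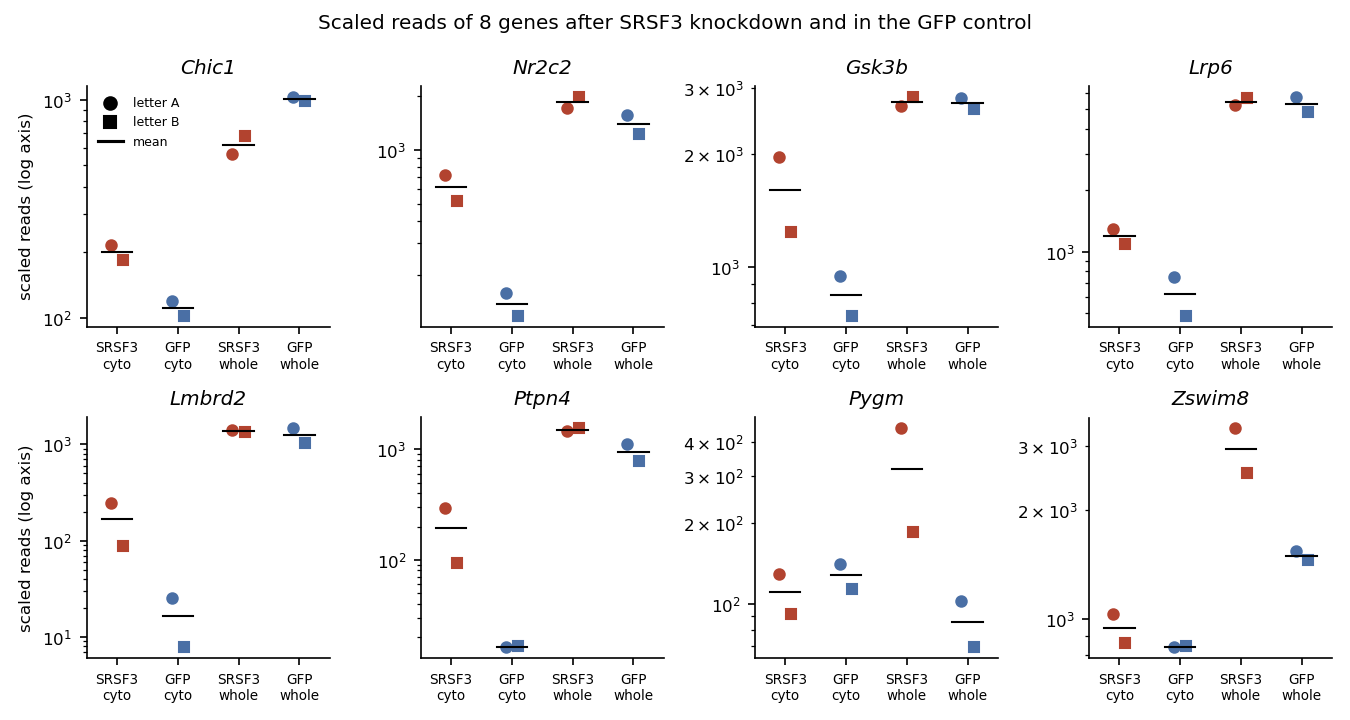
Scaled reads on a log axis of 8 genes, 1 panel each, in SRSF3 knockdown and GFP control cytoplasm and in SRSF3 knockdown and GFP control whole cell, with a circle for letter A, a square for letter B and a bar for the mean of both. Lmbrd2 and Ptpn4 stand higher in knockdown than in control cytoplasm in both letters and Lmbrd2 overlaps in the whole cell, whereas Pygm and Zswim8 stand higher in the knockdown whole cell.

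The 3 largest rises among genes that averaged 50 or more scaled reads over the 4 libraries of each fraction were those of Lmbrd2, Klhl28 and Ptpn4, each of which passed this floor in the cytoplasm through the knockdown libraries. Lmbrd2, which encodes a membrane protein of the LMBR1 family, had 246 and 87.3 scaled reads in SRSF3 knockdown cytoplasm, against 25.3 and 7.81 in GFP control cytoplasm. It stood at 1413 and 1335 in the SRSF3 knockdown whole cell, against 1455 and 1030.1 in the GFP control whole cell, so the fractions differed by 3.13 (SE 0.52, limma adjusted p = 0.00368). Klhl28, a gene of a Kelch and BTB domain protein, had 154 and 71.1 scaled reads in SRSF3 knockdown cytoplasm, against 4.60 and 4.88 in GFP control cytoplasm. It also rose in the whole cell (log2 1.19, adjusted p = 0.000422), and the relative change was 3.0 (SE 0.53, limma adjusted p = 0.00578). Ptpn4, a protein tyrosine phosphatase, had 297 and 94.3 scaled reads in SRSF3 knockdown cytoplasm, against 16.1 and 16.6 in GFP control cytoplasm. Its relative change was 2.62 (SE 0.44, limma adjusted p = 0.00383), with 3.75 within letter A and 1.49 within letter B. Letter A gave the larger change, as it did for 92 of the 107 higher genes (86.0%) and for 65.0% of all genes tested. Across the groups the cytoplasm minus whole-cell difference of Lmbrd2 was -2.50 and -3.91 after SRSF3 knockdown, between -7.66 and -4.80 in the other 6 knockdowns and -5.78 and -6.89 in the control. Both SRSF3 knockdown values lay above each of the others.

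The other 9 of the 12 largest rises ran between 1.82 and 2.22 (adjusted p 0.00103 to 0.04). Of these, Gm15886, Bmpr2, Zfp871, Prrg4, Cpeb2, Zbtb37 and Rbm41 also passed the floor on mean scaled reads in the cytoplasm through the knockdown libraries. Their means in GFP control cytoplasm lay below that floor, between 19.8 (Zbtb37) and 44.5 (Rbm41). Those of Wdfy2 (76.5) and Gm608 (129.8) lay above it. Bmpr2, the type II receptor for bone morphogenetic proteins, had 124 and 93.5 scaled reads in SRSF3 knockdown cytoplasm, against 32.2 and 24.4 in GFP control cytoplasm, and 459.6 and 562 in the SRSF3 knockdown whole cell, against 695 and 447 in the GFP control whole cell, a relative change of 2.06 (SE 0.37, limma adjusted p = 0.00702). The cytoplasmic groups did not overlap, while those of the whole cell did. Wdfy2, which encodes an endosomal protein with WD repeats and a FYVE domain, rose in both fractions, with 558 and 481 scaled reads in SRSF3 knockdown cytoplasm, against 70.1 and 82.9 in GFP control cytoplasm, and 539.8 and 428 in the SRSF3 knockdown whole cell, against 299 and 219 in the GFP control whole cell. The relative change of Wdfy2 was 1.86 (SE 0.30, limma adjusted p = 0.00224). Cpeb2, an RNA-binding protein that acts on poly(A) tails in the cytoplasm, had 215 and 95.8 scaled reads in SRSF3 knockdown cytoplasm, against 31.0 and 19.5 in GFP control cytoplasm, a relative change of 1.87 (SE 0.43, limma adjusted p = 0.04). Zfp871 and Zbtb37, which encode zinc finger proteins, changed by 2.05 and 1.86, Rbm41, an RNA-binding protein gene, by 1.85, Prrg4, a transmembrane protein gene, by 1.90 and the predicted gene Gm608 by 1.82. The antisense gene Gm15886 (relative change 2.22) had 0 reads in its exon bins in the 8 libraries although the gene table gives it values, and since strand-specific counting is not stated, its reads cannot be told apart from those of a gene on the other strand. Nr2c2, an orphan nuclear receptor, had 720.1 and 519.9 scaled reads in SRSF3 knockdown cytoplasm, against 159 and 118 in GFP control cytoplasm, and 1713 and 1973 in the SRSF3 knockdown whole cell, against 1569.8 and 1222 in the GFP control whole cell. Its relative change was 1.77 (SE 0.27, limma adjusted p = 0.00161) in the gene tables but 0.70 (limma adjusted p = 0.0616) in sums of exon-bin reads, where DESeq2 gave 0.69 (adjusted p = 0.0102).

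**Figure D2:**
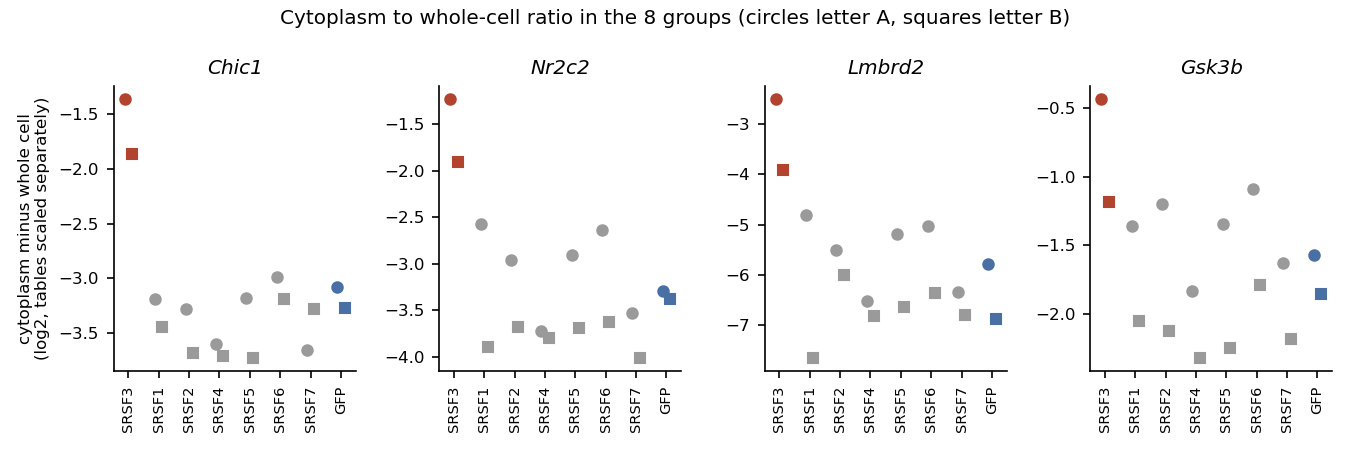
Cytoplasm minus whole cell on the log2 scale for Chic1, Nr2c2, Lmbrd2 and Gsk3b in SRSF3 knockdown, the other 6 knockdowns and the GFP control (circles letter A, squares letter B). Both SRSF3 knockdown points lie above each of the other points for Chic1, Nr2c2 and Lmbrd2, while for Gsk3b the letter B point (-1.19) lies just below letter A of SRSF6 knockdown (-1.09).

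Further members of the 107 higher genes were chosen after their values were seen and are given one by one, with no statement on their processes. Ago2, the slicing Argonaute of the microRNA pathway, had 3707 and 2584 scaled reads in SRSF3 knockdown cytoplasm, against 1629.5 and 1168 in GFP control cytoplasm, with a relative change of 1.47 (SE 0.22, limma adjusted p = 0.00161). Dcp2, a decapping enzyme, had 1157 and 757 scaled reads in SRSF3 knockdown cytoplasm, against 424 and 379 in GFP control cytoplasm, and 2814 and 2904 in the SRSF3 knockdown whole cell, against 3194 and 2916 in the GFP control whole cell. Its relative change was 1.34 (SE 0.17, limma adjusted p = 0.000655). Those of Xrn1, a 5′ to 3′ exonuclease, and Tnrc6b, a GW182 protein that binds Argonaute, were 1.70 (SE 0.35, limma adjusted p = 0.0191) and 1.26 (SE 0.27, limma adjusted p = 0.0234). Acvr2b, a type II activin receptor, had 635 and 693 scaled reads in SRSF3 knockdown cytoplasm, against 168 and 168 in GFP control cytoplasm, a relative change of 1.48 (SE 0.23, limma adjusted p = 0.00164), and Smad5, which transduces the BMP signal, changed by 0.72 (SE 0.16, limma adjusted p = 0.0323). Cbl and Cblb, ubiquitin ligases that turn off receptor tyrosine kinases, changed by 1.8 and 0.84. The transcription factor genes Atf2, Creb1 and Tead1 changed by 1.65, 1.15 and 1.73, and Wwtr1, a coactivator of Tead1, by 0.99. The smallest called rise was that of Nras, a small GTPase, at 0.59 (SE 0.13, limma adjusted p = 0.0275).

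The higher genes mostly rose in the cytoplasm. Of the 107, 90 were called higher in the cytoplasm taken alone, where 7.05% of genes were, and 0 were called lower there (6.72% of genes). In the whole cell 15 were called higher and 33 lower, where 15.3% and 18.1% of genes were. The largest class held 59 genes that rose in the cytoplasm with no call in the whole cell. In 16 genes, Chic1 among them, the cytoplasm rose and the whole cell fell, in 15 both rose, and in 17 the whole cell fell with no call in the cytoplasm. In the same order, these classes held 1.77%, 0.0938%, 4.58% and 12.4% of all genes tested. The last class, with 15.9% of the higher genes, was thus the closest to its share of all genes. Ago2 belonged to the first of these classes. It had 6638 and 9100.3 in the SRSF3 knockdown whole cell, against 11128 and 8078 in the GFP control whole cell, with overlapping groups. Zfp704, a zinc finger gene, was a case of the last, with 690.0 and 664 scaled reads in SRSF3 knockdown cytoplasm, against 682 and 659 in GFP control cytoplasm, and 949 and 1459 in the SRSF3 knockdown whole cell, against 2066 and 2040.3 in the GFP control whole cell. These classes follow from the contrast that called the genes and are a description of it.

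The 21 lower genes had the reverse pattern, in that 20 of them were called higher in the whole cell (15.3% of genes were) and 3 of the 17 that could be tested there were called lower in the cytoplasm (6.72% of genes). Pygm, the muscle form of glycogen phosphorylase, had 129 and 91.9 scaled reads in SRSF3 knockdown cytoplasm, against 141 and 114 in GFP control cytoplasm, while it stood at 449 and 185 in the SRSF3 knockdown whole cell, against 103 and 69.1 in the GFP control whole cell. The whole-cell groups did not overlap and the cytoplasmic groups did. The relative change was -1.96 (SE 0.32, limma adjusted p = 0.00274), and it kept its call in each fit that left out 1 library. Zswim8, a substrate receptor of a ubiquitin ligase that acts on Argonaute, had 3361 and 2529.5 in the SRSF3 knockdown whole cell, against 1539 and 1460.0 in the GFP control whole cell, and 1036 and 861 scaled reads in SRSF3 knockdown cytoplasm, against 837 and 845 in GFP control cytoplasm, a relative change of -0.77 (SE 0.17, limma adjusted p = 0.0269). Arhgef7 had 1835 and 1733 scaled reads in SRSF3 knockdown cytoplasm, against 1789 and 1734 in GFP control cytoplasm, and 2601 and 2278 in the SRSF3 knockdown whole cell, against 1575 and 1426 in the GFP control whole cell, a relative change of -0.66 (SE 0.12, limma adjusted p = 0.00874). Man2c1, a cytosolic mannosidase, moved both ways, with 727 and 995 scaled reads in SRSF3 knockdown cytoplasm, against 1200.5 and 1384 in GFP control cytoplasm, and 1958 and 1678 in the SRSF3 knockdown whole cell, against 1337 and 1362 in the GFP control whole cell, a relative change of -1.0 (SE 0.17, limma adjusted p = 0.00401). Ranbp10 (-0.69), Setd1a, a histone methyltransferase (-0.72), Elmod3 (-1.18), Rnf31, a subunit of the linear ubiquitin ligase (-0.66), and Zfp319 (ENSMUSG00000074140, a zinc finger gene whose name comes from a reference table, -1.44) completed the lower genes with a mean of at least 50 in both fractions, together with Retsat. Retsat, a retinol saturase, changed by -1.43 (SE 0.33, limma adjusted p = 0.045) in the gene tables and by -0.35 (adjusted p = 0.847) in exon-bin sums. P2rx5, an ATP-gated ion channel, changed by -2.30 (SE 0.40, limma adjusted p = 0.00522) in the gene tables, where it had 33.4 and 30.1 scaled reads in SRSF3 knockdown cytoplasm, against 26.4 and 46.8 in GFP control cytoplasm. The knockdown whole-cell libraries stood at 106.1 and 101.1 and those of the control at 22.4 and 21.8. Its exon bins held 24 and 39 reads in the knockdown whole cell, against 33 and 32 in the control, and gave -0.66 (adjusted p = 0.764). So for Retsat and P2rx5 the exon bins did not show the change of the gene tables. The steepest changes were of genes with low values. Hpgds, a prostaglandin D synthase, had 2.23 and 0.773 scaled reads in SRSF3 knockdown cytoplasm, against 3.45 and 0.976 in GFP control cytoplasm, and 62.5 and 30.9 in the SRSF3 knockdown whole cell, against 3.36 and 1.89 in the GFP control whole cell. Tagln3, a calponin-domain protein of neurons, had 17.8 and 10.0 scaled reads in SRSF3 knockdown cytoplasm, against 17.2 and 25.4 in GFP control cytoplasm, and 93.1 and 54.3 in the SRSF3 knockdown whole cell, against 5.60 and 10.4 in the GFP control whole cell. The size of such changes depends on the 1 added before the logarithm.

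**Figure D3:**
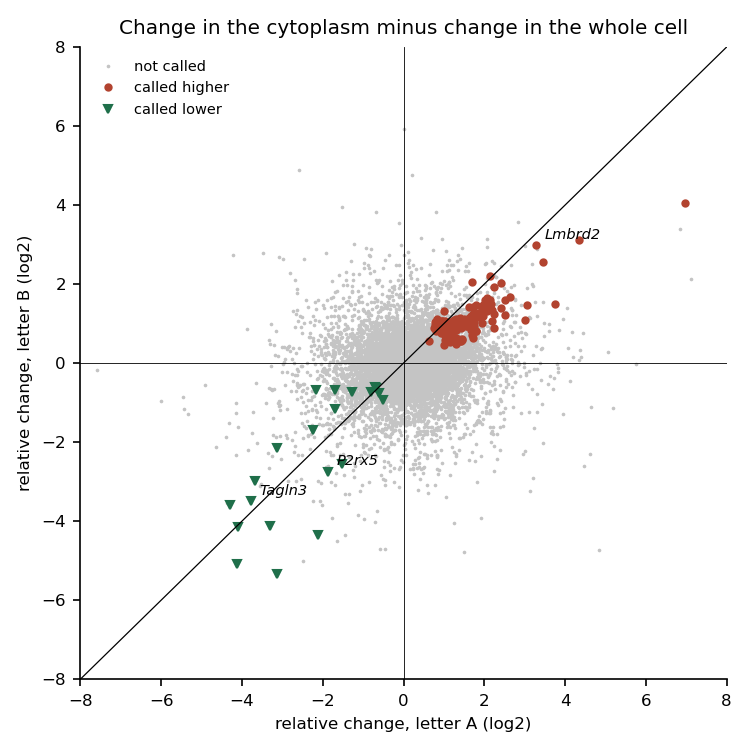
Relative cytoplasmic change of 19184 genes within letter A (x axis, log2) and within letter B (y axis, log2), with called higher genes as circles, called lower genes as triangles, the rest in grey and a line of equality. The 107 higher genes lie in the upper right of the plot and the 21 lower genes in the lower left, both called on the mean of the letters.

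Over all 19184 genes the changes of the 2 letters were weakly related (Spearman 0.17 across genes, which are not independent replicates and share normalization within a library). Each gene was then placed by its cytoplasm to whole-cell ratio in the other 6 knockdowns, which share no library with the contrast. Most of the 107 higher genes had a low ratio. Their median ratio was -2.59 on the log2 scale, against -0.19 over all genes, and it was below 0 in 106 of the 107, against 54.8% of all genes. Of the 107, 58 were among the 10% of genes with the lowest ratio, 3.02% of which were called higher, against 0.558% of all genes, and 87 were among the lowest 20%. The 21 lower genes had a median ratio of -0.23.

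The same ratio separated the letters. In letter A the relative change fell with the ratio across genes (Spearman -0.47, 19184 genes), with medians of 0.70 in the 10% of genes with the lowest ratio and -0.25 in the 10% with the highest. In letter B it did not (Spearman -0.02), with medians of -0.04 and -0.01. With the ratio taken from the GFP control, whose libraries enter the contrast itself, the Spearman values were -0.53 in letter A and -0.09 in letter B. When the trend with this ratio was removed from each library, 77 genes were called higher and 29 lower, of which 70 and 19 were among the 107 and the 21. Of the genes named here, Chic1, Nr2c2 and Gsk3b kept their calls, and Lrp6, Meg3, Zfp704, Zfp850 and Zfp319 lost theirs. Without both letter A cytoplasm libraries 31 genes were higher and 6 lower, an alternative added after the data were seen, and 30 and 5 of these were the same genes.

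**Figure D4:**
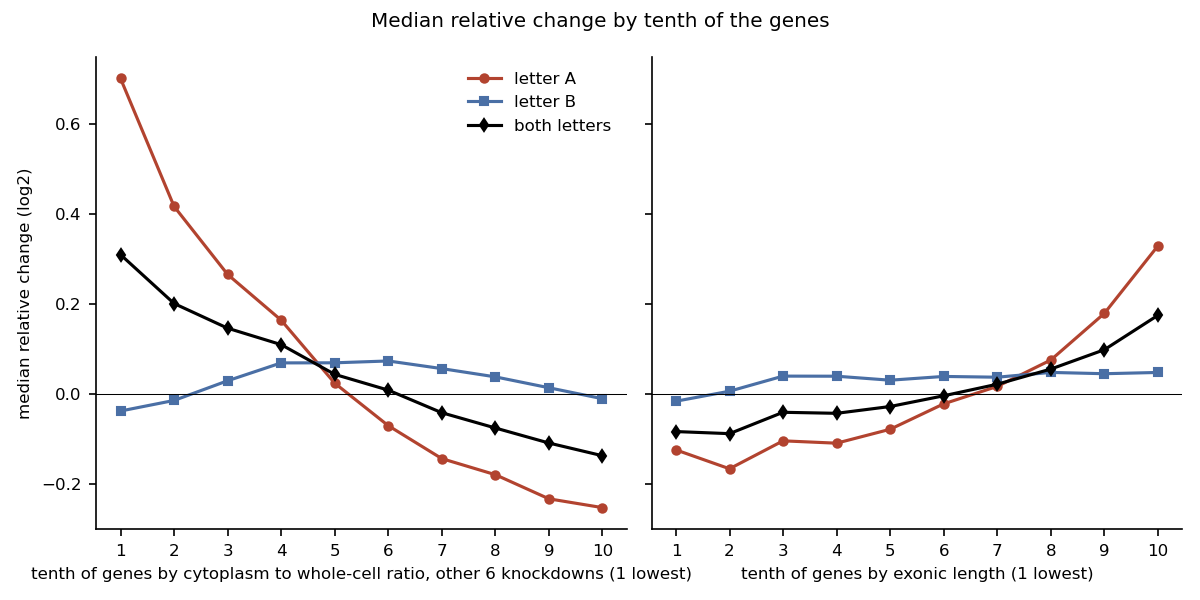
Median relative cytoplasmic change (log2) in 10 equal groups of genes ordered by the cytoplasm to whole-cell ratio in the other 6 knockdowns (left) and by exonic length (right), for letter A, letter B and both. Letter A falls from 0.70 to -0.25 along the ratio and climbs to 0.33 along length, and letter B stays between -0.04 and 0.07 in both panels.

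Exonic length, the summed length of the exon bins of a gene, was known for 95 of the 107 higher genes, and their median was 5755 bases, against 3019.5 bases over 18118 genes. The relative change was higher in longer genes in letter A (Spearman 0.23) and hardly in letter B (0.04), and the medians in the longest 10% were 0.33 and 0.05. Length and ratio go together (Spearman -0.39). Among the 20% of genes with the lowest ratio, 44 of the 1330 that were also in the longest 20% were called higher, and 2 of the 450 in the shortest 20%, against 0.558% of all genes. With the trend with length removed, 72 of the 95 higher genes with a length kept their call, and 20 genes were lower. The letter A median at that low ratio was 0.48 for the shortest and 0.61 for the longest genes, and in letter B it was 0.01 for both.

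Exon bins show where in these genes the cytoplasmic reads lay. The bins of a gene were split into the last block, the run of adjoining bins at its 3′ end, and the bins upstream of it. In Chic1 (mm10, chromosome X, plus strand) the last block is 1 bin of 6633 bases at chrX:103389460-103396092, and the longest 3′ UTR of the gene in the mm9 annotation has 6582 bases. Upstream of it the cytoplasm held 149 and 209 reads after SRSF3 knockdown, against 51 and 60 in the control, and the last block 106 and 109, against 72 and 69. In the whole cell the upstream bins held 158 and 203 reads, against 157 and 141, and the last block 377 and 599, against 821 and 949. Scaled to the exon-bin reads of the libraries, the change in letters A and B was 1.46 and 1.45 upstream and 0.48 and 0.32 in the last block of the cytoplasm, and -0.06 and 0.47 upstream and -1.19 and -0.71 in the last block of the whole cell (log2). Thus the cytoplasmic gain of Chic1 was larger upstream of the last block, and the whole-cell loss lay within it. In both letters the cytoplasmic change exceeded the whole-cell change in both parts of the gene. The relative change was therefore not confined to either part.

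Gsk3b, which encodes a kinase at the centre of Wnt and insulin signaling, showed the larger cytoplasmic gain upstream of the last block more sharply. Its last block (5583 bases, chr16:38240502-38246084, plus strand) held 658 and 511 reads in SRSF3 knockdown cytoplasm, against 579 and 554 in the control, while the exons upstream held 1916 and 1839, against 427 and 380. The last block thus took 25.6% and 21.7% of its cytoplasmic reads after SRSF3 knockdown, 44.1% to 60.1% in the 12 libraries of the other 6 knockdowns and 57.6% and 59.3% in the GFP control. In the whole cell the shares were 32.6% and 38.1%, against 50.5% to 56.7% in the other 6 knockdowns and 54.6% and 57.0% in the control. In the gene table Gsk3b had 1962 and 1237 scaled reads in SRSF3 knockdown cytoplasm, against 944 and 741 in GFP control cytoplasm. Its relative change over the whole gene was 0.90 (SE 0.17, limma adjusted p = 0.00763). In Nr2c2 (last block of 5599 bases, chr6:92167459-92173057, plus strand) the cytoplasmic share was 40.6% and 42.0% after SRSF3 knockdown, 67.1% to 85.5% in the other 6 knockdowns and 78.2% and 78.4% in the control. Its whole-cell shares of 54.9% and 53.6% lay within the 52.7% to 59.7% of the other knockdowns. Lrp6, the Wnt coreceptor, had 29.5% and 28.1% in knockdown cytoplasm, against 40.6% to 60.7% in the other 6 knockdowns and 58.5% and 57.9% in the control. Gm608 had 18.8% and 9.63% in knockdown cytoplasm, against 28.8% to 73.5% in the other 6 knockdowns and 57.5% and 42.9% in the control. For Chic1 the cytoplasmic share, 41.6% and 34.3%, overlapped the 37.4% to 65.3% of the other knockdowns, and the whole-cell share, 70.5% and 74.7%, lay below their 79.3% to 85.4%. Cpeb2 had few reads outside SRSF3 knockdown, and its cytoplasmic share of 20% and 23.2% lay just below the 23.8% to 80.0% of the 11 other libraries with at least 20 reads.

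**Figure D5:**
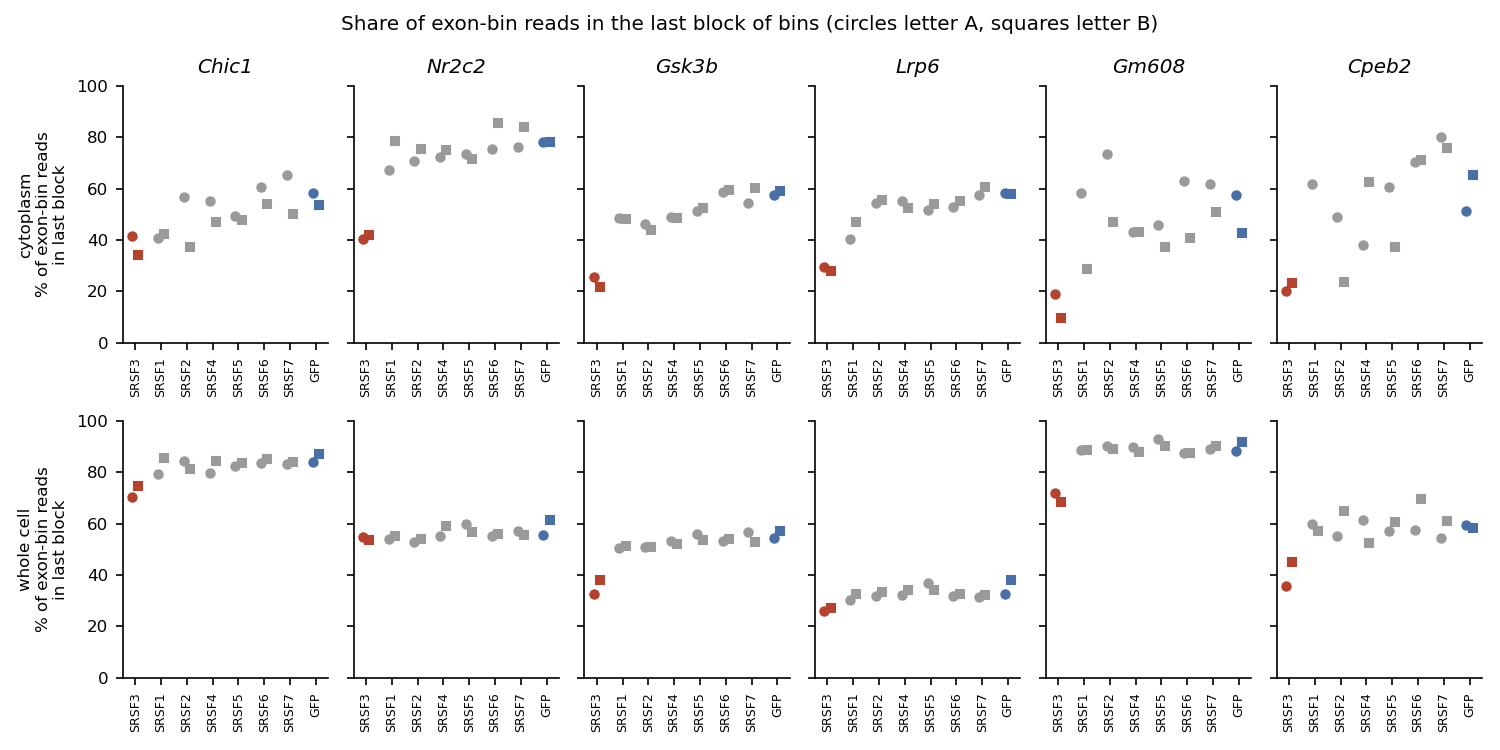
Percent of exon-bin reads in the last block of bins of Chic1, Nr2c2, Gsk3b, Lrp6, Gm608 and Cpeb2, in the cytoplasm (top) and the whole cell (bottom), for SRSF3 knockdown, the other 6 knockdowns and the GFP control (circles letter A, squares letter B, libraries with at least 20 reads of the gene). Both SRSF3 knockdown cytoplasm points lie below each of the others for Nr2c2, Gsk3b, Lrp6, Gm608 and Cpeb2.

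The lower share of the last block was not limited to these 6 genes. Of the higher genes, 61 had a last block of at least 2000 bases, and 60 of these had at least 20 reads in each of the 8 libraries. In 52 of the 60 (86.7%) the cytoplasmic share of the last block was lower after SRSF3 knockdown than in the control in both letters, and in 2 it was higher in both. Among all 3770 genes tested with such a last block it was lower in 73.8%, so a lower share was common. The size of the fall was a median of -18.8 percentage points in the higher genes and of -4.98 over all such genes. The median change was 1.71 upstream of the block and 0.32 within it in the cytoplasm of the 60 genes, and 0.08 and -0.49 in their whole cell (log2 of scaled reads + 1). Set against the other 6 knockdowns in place of the GFP control, both SRSF3 knockdown cytoplasm libraries had a lower share than each of the 12 others in 42 of 58 higher genes with enough reads (72.4%), against 24.8% of 3640 genes tested. In the whole cell this held for 48 of 61 higher genes (78.7%), against 15.7% of 3980. Both GFP control cytoplasm libraries had a lower share than each of the 12 in 0 of the 58 genes and in 15 of the 3640. In the 27 higher genes with a shorter last block and enough reads the median share moved by -0.95 points, and their upstream and last bins rose by 1.37 and 1.09. Lmbrd2 (last block of 1663 bases) was not one of these, since it had only 11 reads in GFP control cytoplasm letter B. Its cytoplasmic changes were 3.40 and 3.67 upstream and 2.84 and 2.47 in the last block. They rest on control cytoplasm reads of 23 and 8 upstream and 7 and 3 in the last block. The shares were extended to all genes after the data were seen, use the reads that chose the genes, and are given without a test.

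In the gene lists few members changed, to be read against 0.558% of all genes called higher and 0.109% lower. The Wnt, DHHC and CHIC, orphan receptor and purinergic receptor lists hold Gsk3b, Chic1, Nr2c2 and P2rx5, respectively. Each of these genes had been named by earlier work on these data, so its call is no independent evidence about its list. Of the 18 genes of GSK3 and Wnt signaling, Gsk3b and Lrp6 were called higher and 0 lower, and the median change was 0.14, against 0.01 over all genes. Lrp6 had 1289.9 and 1088 scaled reads in SRSF3 knockdown cytoplasm, against 752 and 484 in GFP control cytoplasm, and 5216 and 5658 in the SRSF3 knockdown whole cell, against 5731 and 4835 in the GFP control whole cell, a relative change of 0.95 (SE 0.20, limma adjusted p = 0.0205). The Wnt receptor gene Fzd3 stood at 0.73 (SE 0.19, limma adjusted p = 0.0904) and Gsk3a, the paralog of Gsk3b, at -0.28 (SE 0.17, limma adjusted p = 0.764). Of 21 genes of DHHC acyltransferases and CHIC proteins, Chic1 was called higher and 0 lower, and its relative Chic2 had 0.27 (SE 0.18, limma adjusted p = 0.788). On exon-bin reads edgeR also called Zdhhc21, and DESeq2 Zdhhc21 and Zdhhc20, acyltransferase genes, higher. Nr2c2 was the 1 call among 13 genes of orphan nuclear receptors and their partners, and its closest relative Nr2c1 had 0.12 (SE 0.19, limma adjusted p = 0.949). P2rx5 was the 1 call among 8 purinergic receptor genes tested. Among 8 nuclear RNAs tested, Meg3, a maternally expressed long noncoding RNA, was called higher by 1.17 (SE 0.26, limma adjusted p = 0.0292), and the list had medians of 1.12 in letter A and 0.07 in letter B. Of 351 Zfp genes, Zfp850, Zfp871, Zfp652 and Zfp704 were called higher and 0 lower, with a median of 0.07 (Zfp319, which the tables list by ID alone, is not in this list). On exon-bin reads edgeR called 3 and DESeq2 8 of the Zfp genes higher and 0 lower. Zfp850 had 14.2 and 7.40 scaled reads in SRSF3 knockdown cytoplasm, against 0.00435 and 0 in GFP control cytoplasm, near the floor, and 139.8 and 136 in the SRSF3 knockdown whole cell, against 184 and 137 in the GFP control whole cell. The SR protein genes (11) had 0 calls in either direction by limma. Their relative changes ran between -0.04 for Srsf3 and 1.26 for Srsf12, and in the cytoplasm taken alone Srsf6 and Srsf11 were called higher and Srsf3 lower. No member was called in either direction in the lists of mRNA export (21 genes tested), cleavage and polyadenylation (19), exon junction and decay (15), nuclear detained introns (9), immediate early (16), ER and secretory (20), snoRNA hosts (7), pluripotency (10), other tissues (15), ribosomal proteins (81), nuclear-encoded oxidative phosphorylation (75), mitochondrially encoded (9) and replication-dependent histone genes (44). Over these 13 lists and the SR proteins (352 genes), limma gave 7 higher and 8 lower at an unadjusted p below 0.05 (8% of all genes tested had such a p in either direction), edgeR called 0, and DESeq2 called Srsf10 higher and Clk2 lower. Ribosomal protein mRNAs, which are mostly cytoplasmic, had a median of -0.11, with -0.21 in letter A and 0.001 in letter B, and those of oxidative phosphorylation had -0.17, with -0.35 and 0.02.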

How the data were processed

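Poly(A)+ RNA of P19 cells (whole cell and cytoplasm, 2 replicates for each of 7 knockdowns and the GFP control) was sequenced, with reads aligned to mm10 by the authors with TopHat2 (2.0.9 or 2.0.10) and Bowtie2 2.1.0 after CASAVA 1.8.2 and cutadapt, per the submitters' processing notes. The deposited gene tables hold a signal, estimated reads per gene scaled by the authors within each fraction. The deposited exon-bin tables hold a signal that is whole reads divided by a size factor, and 100% of values came out whole within 0.01, which recovered the read counts. The FPKM values deposited per condition are the authors' pooled values and entered no test. Deposited results of the authors' own comparisons (fold changes, p-values and splicing estimates) were not used.

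The values were taken as log2(value + 1) with TMM factors within each table, filtered with filterByExpr, and fitted with limma 3.58.1 (variance trend, R 4.3.3) to all 32 libraries with the letter within each fraction as a block. Fold changes are on the log2(value + 1) scale, which understates changes of low genes. P-values were adjusted by Benjamini-Hochberg over all genes tested. Same-lettered libraries deviated together (correlations 0.449 to 0.827 between cytoplasm groups and 0.239 to 0.815 between whole-cell groups, 28 pairs each), so the letter was taken as pairing the samples within each fraction. Between SRSF3 knockdown and GFP control the correlation was 0.724 in the cytoplasm (median of the pairs 0.720). In the whole cell it was 0.239, the lowest of the 28 pairs (median 0.563), so the pairing was weakest there for the groups compared here. The study's methods describe the 2 replicates as biological. edgeR 4.0.16 and DESeq2 1.42.0 were run on the recovered reads as alternatives, where they called 140 and 268 genes higher and 13 and 20 lower. Exon-bin reads numbered 39230650 to 68431199 in the 8 libraries. In all 32 libraries the gene tables summed to between 29596616 and 38371995.

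Genes listed at 0 despite many exon-bin reads were left out as failed estimates (8 genes, Eef1a1 and mt-Co1 among them), by a rule that was widened after the data were seen. The members and gene lists were chosen with earlier results of these data known. Named genes are the 12 largest changes in each direction among called genes with a mean of at least 50 in both fractions and the same sign in both letters (10 were lower), together with Chic1, Nr2c2, P2rx5, Gsk3b, Srsf3 and called list members, 32 in all. Tested on simulated data of 19184 genes with 200 changed, the fit recovered 67% of the 2-fold and all (100%) of the 4-fold genes, and called 10 unchanged genes, and without the block it found 12% and 77% and called 0. The changed genes were drawn from those with a mean log2 value above that of 100 scaled reads. The noise was independent between libraries, and the block model was taken as true. These shares therefore do not cover genes with low values or disagreement between the letters beyond the block. The alternatives were no block, the 8 libraries alone, fractions paired, the other 6 knockdowns as control, another pseudocount, no filter, no TMM, exon-bin reads, trends with ratio or length removed, and each library left out.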

Additional observations from a re-analysis of the deposited data

Results flagged for a closer look

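The change after SRSF3 knockdown differed between the fractions by the test of that difference in 107 genes that were relatively higher in the cytoplasm and 21 that were lower (limma, adjusted p below 0.05). Among the named higher genes the difference on the log2 scale was 3.72 for Zfp850, 3.13 for Lmbrd2, 3.0 for Klhl28, 2.62 for Ptpn4, 2.22 for Gm15886, 2.06 for Bmpr2, 2.05 for Zfp871, 1.90 for Prrg4, 1.87 for Cpeb2, 1.86 for Zbtb37, 1.86 for Wdfy2, 1.85 for Rbm41, 1.82 for Gm608, 1.77 for Nr2c2, 1.57 for Chic1, 1.17 for Meg3, 0.97 for Zfp652, 0.95 for Lrp6, 0.90 for Gsk3b and 0.84 for Zfp704. Among the named lower genes it was -0.66 for Rnf31, -0.66 for Arhgef7, -0.69 for Ranbp10, -0.72 for Setd1a, -0.77 for Zswim8, -1.0 for Man2c1, -1.18 for Elmod3, -1.43 for Retsat, -1.44 for Zfp319, -1.96 for Pygm and -2.30 for P2rx5. No group has more than 2 replicates, so single libraries were not searched for outliers.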

How the results depend on the processing

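The 107 higher genes numbered 1 without the replicate block, 1 with the 8 libraries alone, 179 with the fractions of a sample paired, 684 with the other 6 knockdowns as control, 268 by DESeq2 on exon-bin reads and 31 without both letter A cytoplasm libraries of SRSF3 knockdown and GFP control, the last chosen after seeing the data. Leaving out 1 library gave 20 to 190. The 21 lower genes numbered 0 without the replicate block (limma, 221 at an unadjusted p below 0.05, against 13 in edgeR and 20 in DESeq2, both with the block), 0 with the 8 libraries alone (225 at an unadjusted p below 0.05), 32 with fractions paired, 126 with the other 6 knockdowns as control, 59 with a pseudocount of 10, 35 with no filter, 10 in exon-bin sums, 13 by edgeR and 6 without both letter A cytoplasm libraries, and 4 to 24 with 1 library left out. Chic1 was 1.57 with the 8 libraries alone (adjusted p = 0.09) and kept its call without the replicate block (adjusted p = 0.0335). The correlation with the ratio was -0.0196 in letter B alone and -0.48 to -0.11 with 1 library left out. That with length was 0.042 in letter B alone, 0.34 in genes with a mean of at least 500, and 0.0576 to 0.28 with 1 library left out. Srsf3 was -0.65 in the cytoplasm without the replicate block (adjusted p = 0.362) and -0.88 to -0.40 with 1 library left out, and -0.61 in the whole cell without the block (adjusted p = 0.105) and -0.79 to -0.43. Of the 30 other named genes that were called, 6 kept an adjusted p below 0.05 in each of the 8 fits that left out 1 library. The cause of these differences was not tested beyond what the settings themselves change. Of the 94 higher genes that could be tested on exon-bin reads, 1 (Gm12666) had the opposite sign by edgeR and by DESeq2, and the relative change of Srsf3, which was not called, ran between -0.27 and 0.21 with 1 library left out. With 2 replicates per group the error of a single gene rests on the spread pooled over all groups, and genes below about 50 scaled reads change with the value added before the logarithm.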
